A study of Mus musculus with 25 samples.

Results

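The 7 genes described here encode the syntenin adaptors (Sdcbp and Sdcbp2), the syndecans they bind (Sdc1, Sdc2, Sdc3 and Sdc4) and the ESCRT accessory protein ALIX (Pdcd6ip). They were taken by symbol from a table of 30926 genes, and 6 of the 7 passed the filter on low values that left 12473 genes for testing. The set was chosen by measured values, the higher Sdcbp level with both Slug hairpins and the higher Sdcbp2 level in glutamine starvation, so those are given as a description and without a test. The other members were taken for their place in the pathway.

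Syntenin-1, the product of Sdcbp, is a scaffold with tandem PDZ domains that hold the cytoplasmic ends of syndecans. Through short peptide motifs it also recruits ALIX, which links it to the ESCRT machinery that buds small vesicles into endosomes, and the syndecan, syntenin and ALIX route is one of the ways in which cells make exosomes. Syntenin-2, the product of Sdcbp2, has the same domain layout and binds membrane phosphoinositides. Syndecans are transmembrane proteoglycans whose heparan sulfate chains bind growth factors and matrix, and Sdc1 is the main syndecan of epithelia and of the tumours that arise from them.

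Messenger RNA was measured in 25 libraries of KPC, a pancreatic ductal adenocarcinoma cell line on a C57BL/6 background, in 5 groups of 5. Parental cells spent 24 h in complete DMEM with 10% serum (complete) or in medium that lacked glutamine and held 10% dialysed serum (starved). In starved against complete, the lack of glutamine and the dialysed serum therefore cannot be told apart. The remaining groups carried a short hairpin RNA, targeting luciferase as a control (shLuc) or Slug (shSlug1, and shSlug2 with another sequence). All of these hairpin groups spent 24 h without glutamine, with 10% serum. Their serum is not described here as dialysed, so they may also differ in serum from starved parental cells. No hairpin group in complete medium was analysed here, and the sources do not say whether each hairpin culture was a pool or a clone. Slug is the product of Snai2, a zinc-finger repressor of epithelial genes, and the study asked how glutamine depletion acts through it. The sources also do not say whether the 5 libraries of a group came from separate cultures. The p-values below set group differences against the spread among these libraries. If the cultures were not separate, they do not reach beyond these samples.

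Library totals ran from 158729 to 549893 counts, which makes 1 count worth between 1.82 and 6.30 CPM, counts scaled to a common library total. Snai2, the targeted gene, had 7.54 ± 5.42 CPM (SD, n = 5) in complete medium and 79.5 ± 14.5 after starvation. The shLuc, shSlug1 and shSlug2 groups had 55.9 ± 24.0, 6.09 ± 3.75 and 4.29 ± 2.89, and each hairpin library against Slug lay below every shLuc library. All 7 markers of a ductal epithelial list were detected in each group. Their summed level was 4215 to 5322 CPM in complete medium and 2117 to 2648 after starvation, and it was 4947 to 6453 in shLuc, 5102 to 5875 in shSlug1 and 5287 to 6413 in shSlug2 libraries. Summed markers of fibroblasts, leucocytes, endothelium and acinar or islet cells reached at most 15.3, 12.7, 15.9 and 41.7 CPM in any library. Mitochondrially encoded genes took 24.0% of counts in complete medium, 25.1% in starved, 19.8% in shLuc, 20.9% in shSlug1 and 16.2% in shSlug2 libraries on average.

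The docking site that the syntenins read is written in the last codons of every syndecan gene. The final 45 coding bases of the mouse syndecans, taken from GENCODE M21 on GRCm38, are shown because this end is what the 4 proteins share. The capitals mark the last 15 bases, stop codon included, which encode the PDZ-binding end of the cytoplasmic tail.
Sdc1: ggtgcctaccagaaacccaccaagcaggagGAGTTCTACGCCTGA
Sdc2: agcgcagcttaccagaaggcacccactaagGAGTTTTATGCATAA
Sdc3: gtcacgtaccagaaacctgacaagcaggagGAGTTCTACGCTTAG
Sdc4: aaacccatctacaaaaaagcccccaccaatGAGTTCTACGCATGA
Between pairs of syndecans, 11 to 14 of the 15 capital bases were identical. Over all 45 bases, 18 to 35 were identical, with Sdc1 closest to Sdc3 at 35 and Sdc2 closest to Sdc4 at 29.

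The syntenin genes are related in sequence. Their coding sequences have 897 bases (Sdcbp) and 879 bases (Sdcbp2), were identical in 558 of 908 alignment columns, or 61.5%, and shared no run of 31 bases. Sdcbp (ENSMUSG00000028249.15) lies on chromosome 4 at 6365650 to 6408423 on the plus strand of GRCm38, and its 3′ part overlaps Nsmaf on the minus strand by 12217 bases. Sdcbp2 (ENSMUSG00000027456.8) lies on chromosome 2 at 151572622 to 151590005 on the plus strand and overlaps no other gene. The sources do not say whether the authors' counting used strand, so reads of Sdcbp and Nsmaf may not be told apart, and the last 300 transcribed bases of Sdcbp also share runs of 31 bases with the predicted gene Gm47724. Nsmaf itself averaged 38.3 CPM in complete medium, 35.3 in starved, 15.0 in shLuc, 16.2 in shSlug1 and 12.6 in shSlug2 libraries. It was 2.35-fold lower in shLuc than in starved libraries, with no overlap (limma adjusted p = 0.04868, and 0.06881 under TMM scaling). Nsmaf was called in no other comparison, and its part in the Sdcbp levels was not tested.

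Promoter windows from RefSeq (GRCm38.p6, 250 bases before the start to 50 after it) matched 5 of the 7 members by symbol: Sdcbp2, Sdc1, Sdc3, Sdc4 and Pdcd6ip. The 250 bases before Sdcbp2 (chr2:151572373-151572622, plus strand) are shown because the group means of this gene span a 9.61-fold range, and those before Pdcd6ip (chr9:113708260-113708509, minus strand) because they hold the E-box that Slug is known to bind. Capitals mark an AP-1 motif (TGANTCA) in the first and that E-box (CAGGTG) in the second.
Sdcbp2: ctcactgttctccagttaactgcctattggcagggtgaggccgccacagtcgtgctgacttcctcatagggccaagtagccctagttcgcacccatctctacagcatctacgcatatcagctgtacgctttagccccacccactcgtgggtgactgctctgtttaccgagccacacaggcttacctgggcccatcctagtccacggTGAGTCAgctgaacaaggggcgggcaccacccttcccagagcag
Pdcd6ip: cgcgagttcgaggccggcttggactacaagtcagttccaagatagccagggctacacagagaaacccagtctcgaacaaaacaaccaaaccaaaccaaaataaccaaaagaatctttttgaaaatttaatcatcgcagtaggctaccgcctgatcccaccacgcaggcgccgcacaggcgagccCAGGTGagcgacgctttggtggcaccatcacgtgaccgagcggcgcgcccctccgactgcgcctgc
Both strands were searched. CAGGTG was present in the Pdcd6ip window and in 20.2% of all 32851 windows, and no match to it was found in the other 4. The general E-box CANNTG, of which CAGGTG is a special case, had 4 matches in the Sdcbp2 window, 2 in that of Pdcd6ip and 1 in that of Sdc1, and was found in 72.3% of windows. The AP-1 motif of Sdcbp2 overlaps one of its CANNTG matches, and TGANTCA was found in 7.81% of windows. TGATGNAA, the composite element bound by ATF4, was in none of the 5 and in 3.97% of all windows.

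The Sdcbp group means were highest in the cells with a Slug hairpin. Its CPM was 686, 735, 821, 588 and 439 in the shSlug1 libraries. It was 607, 564, 518, 667 and 585 with shSlug2, against 222, 261, 285, 253 and 317 with shLuc. Every shSlug library lay above every shLuc library. The means were 654 ± 146, 588 ± 54.9 and 268 ± 35.7 CPM (SD, n = 5), that is 2.44-fold and 2.20-fold higher than with shLuc. These values chose the gene and carry no test.

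The parental line offers another base for these levels. Sdcbp had 344, 443, 391, 464 and 489 CPM in starved parental libraries, and 324, 307, 356, 296 and 308 in complete medium. The starved mean was 426 ± 58.4 CPM and the complete mean 318 ± 23.3, with 4 of 5 starved libraries above every complete one. This difference, which the choice of the gene did not use, was a log2 change of 0.41 with a standard error (SE) of 0.13 and an adjusted p of 0.01449 in limma. Without starved replicate 5 it was 0.36, with an adjusted p of 0.05446 in limma, so the call was lost and is not firm. Leaving out any single library of the 2 groups kept the change between 0.36 and 0.49.

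The shLuc libraries sat 1.59-fold below starved parental cells for Sdcbp, and these groups did not overlap. Against starved parental cells the shSlug1 mean was 1.53-fold higher, with overlap, and the shSlug2 mean was 1.38-fold higher, without overlap. From low to high the order of the group means was shLuc, complete, starved, shSlug2 and shSlug1, and among neighbours in that order only starved and shSlug2 had ranges that did not overlap.

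**Figure D1:**
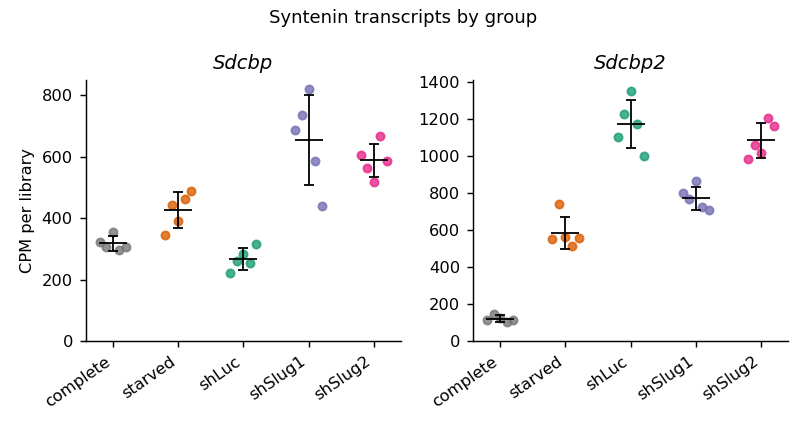
Sdcbp and Sdcbp2 in CPM (linear axis from 0) in each of the 5 groups, 1 point per library, with a bar for the mean and whiskers for 1 SD (n = 5). All 10 shSlug libraries lie above the shLuc libraries for Sdcbp, and all 20 libraries in glutamine-free medium lie above those in complete medium for Sdcbp2.

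The Sdcbp2 level was higher in every library without glutamine than in any library with it. Its CPM was 112, 150, 129, 103 and 116 in complete medium and 551, 740, 561, 515 and 555 in starved parental cells. The means were 122 ± 18.1 and 584 ± 88.8 CPM (SD, n = 5), a 4.79-fold difference with no overlap, and starved replicate 2 stood above the other 4. These values chose the gene and carry no test.

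With shLuc, Sdcbp2 had 1105, 1226, 1349, 1174 and 1001 CPM, a mean of 1171 ± 130. That mean was 2.00-fold that of starved parental cells, and the 2 groups, both without glutamine, did not overlap. The shLuc mean was 9.61-fold that of complete medium, a comparison in which medium and hairpin cannot be told apart.

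The Slug hairpins differed from each other at Sdcbp2. Its CPM was 801, 768, 863, 725 and 709 with shSlug1 (773 ± 62.0, SD, n = 5), and all 5 lay below every shLuc library. With shSlug2 it was 985, 1059, 1019, 1206 and 1160 (1086 ± 94.0), within reach of the shLuc libraries. In limma, shSlug1 against shLuc fell by 0.60 on the log2 scale (SE 0.12, adjusted p = 0.001179), and the group mean was 1.52-fold lower. The shSlug2 change was -0.11 (SE 0.12, adjusted p = 0.8758).

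The difference between the hairpins themselves was 0.49 on the log2 scale (SE 0.12, limma adjusted p = 0.02085), 1.40-fold higher with shSlug2, and the ranges did not overlap. That call is not firm. Under TMM scaling the change was 0.44 with an adjusted p of 0.06953 in limma, and without starved replicate 3 and shSlug1 replicates 4 and 5 it was 0.42 with an adjusted p of 0.2062. It was also lost without shSlug1 replicate 4 or 5 or shSlug2 replicate 4 or 5, one at a time. The mitochondrial share averaged 20.9% with shSlug1 and 16.2% with shSlug2, and with totals taken without the mitochondrial genes the adjusted p was 0.07786 in limma.

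From low to high the Sdcbp2 means ran complete, starved, shSlug1, shSlug2 and shLuc. Neighbours overlapped at starved and shSlug1 and at shSlug2 and shLuc, and did not overlap at the other 2 steps. The shLuc group thus had the lowest of the 5 means for Sdcbp and the highest for Sdcbp2.

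**Figure D2:**
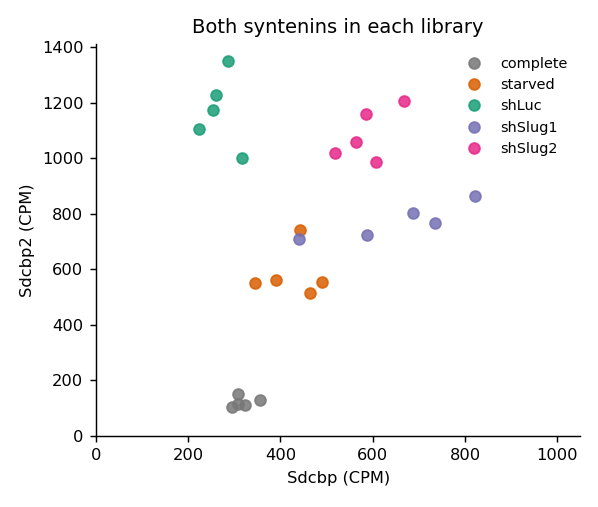
Each of the 25 libraries by its Sdcbp level (horizontal axis, CPM) and its Sdcbp2 level (vertical axis, CPM), coloured by group; both axes are linear and start at 0. The shLuc libraries sit at 222 to 317 CPM of Sdcbp and 1001 to 1349 CPM of Sdcbp2, the shSlug2 libraries at 518 to 667 and 985 to 1206, and the complete libraries at 296 to 356 and 103 to 150.

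Sdc1 fell in starvation. The gene (ENSMUSG00000020592.14, chromosome 12, 8771323 to 8793715, plus strand) had 206, 201, 176, 211 and 154 CPM in complete medium and 82.9, 83.4, 139, 83.7 and 42.3 in starved cells. Every starved library lay below every complete one. The means were 190 ± 24.1 and 86.2 ± 34.3 CPM (SD, n = 5), a level 2.20-fold lower in starvation. In limma it fell by 1.21 on the log2 scale (SE 0.23, adjusted p = 3.541e-05). In these bulk samples, fewer cells expressing a gene and less RNA per cell cannot be told apart.

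Epithelial genes shifted in the same comparison. Of the 7 epithelial markers, 6 fell and 1 rose in starved cells by limma, and their summed ranges did not overlap between these groups. In the hairpin groups the epithelial sum was at least 4947 CPM in every library, and the Sdc1 means were 56.9 to 90.4 CPM. Such a sum is weighted to the most abundant markers. The part of the epithelial genes in the Sdc1 levels was not tested.

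With shLuc, Sdc1 had 89.0, 77.0, 124, 88.6 and 73.3 CPM (90.4 ± 20.1, SD, n = 5). With shSlug1 it had 61.2, 66.4, 55.6, 72.9 and 28.3 (56.9 ± 17.2), each below the lowest shLuc library, although the nearest pair were 72.9 and 73.3. With shSlug2 it had 57.8, 83.5, 45.9, 45.6 and 74.3 (61.4 ± 17.0), of which 3 lay below every shLuc library. Neither difference passed the test. The limma change was -0.70 with shSlug1 (SE 0.23, unadjusted p = 0.003476, adjusted p = 0.107) and -0.57 with shSlug2 (SE 0.23, unadjusted p = 0.01676, adjusted p = 0.3907). These values share the shLuc libraries as control. Sdc1 also shares runs of 31 bases in its last 300 transcribed bases with the predicted genes Gm14724 and Gm16407.

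Sdc4, the broadly expressed syndecan of focal adhesions, went the other way in starvation. Sdc4 (ENSMUSG00000017009.3, chromosome 2, 164424247 to 164443887, minus strand) had 131, 177, 219, 120 and 148 CPM in complete medium and 207, 287, 416, 175 and 249 in starved cells. The starved libraries were mostly higher, with 3 of 5 above every complete one and replicate 3 far above the rest. The means were 159 ± 39.6 and 267 ± 93.5 CPM (SD, n = 5), 1.68-fold higher, and the limma change was 0.71 (SE 0.19, adjusted p = 0.003704). The starved replicate with the highest Sdc4 was also the shallowest library and the one with the highest Sdc1 of its group. Leaving out any single library of the 2 groups kept the Sdc4 change between 0.53 and 0.85, with adjusted p in limma of at most 0.03735.

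The hairpin groups had Sdc4 levels close to those of starved parental cells. Their means were 246 ± 52.2 CPM (shLuc), 242 ± 62.1 (shSlug1) and 238 ± 77.4 (shSlug2), with SD and n = 5. The limma changes against shLuc were -0.04 with shSlug1 (SE 0.19, adjusted p = 0.9694) and -0.08 with shSlug2 (SE 0.19, adjusted p = 0.947). All 3 groups overlapped each other.

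**Figure D3:**
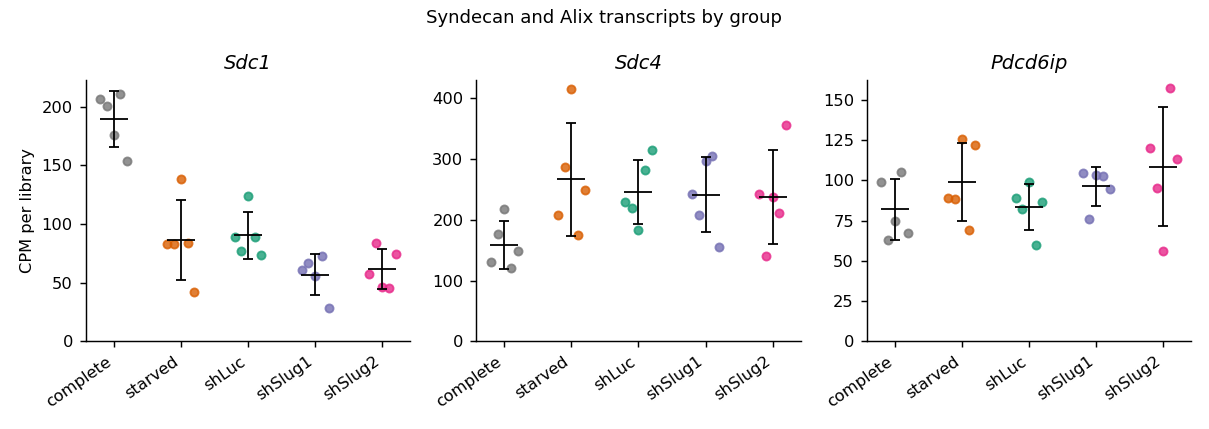
Sdc1, Sdc4 and Pdcd6ip in CPM (linear axes from 0, each panel with its own scale) by group, 1 point per library, with a bar for the mean and whiskers for 1 SD (n = 5). For Sdc1 the complete libraries, at 154 to 211 CPM, lie above all 20 others, whose highest is 139.

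Sdc2 and Sdc3 were close to the limit of detection. Sdc2, the syndecan known from mesenchymal cells (ENSMUSG00000022261.5, chromosome 15, 32920723 to 33034935, plus strand), had 31 counts in all, in 18 of 25 libraries, pooled as 9 in complete medium, 5 after starvation, 4 in shLuc, 3 in shSlug1 and 10 in shSlug2 cells. At this depth no difference was detectable, and its limma changes had an SE of 0.80, as for the 1.33 of shSlug2 against shLuc (adjusted p = 0.6562). Of the 10 counts with shSlug2, replicate 1 alone, at 14.4 CPM, held 6. Sdc3, known from neural tissue (ENSMUSG00000025743.14, chromosome 4, 130792537 to 130826319, plus strand), had 16 counts in 11 libraries and was not tested. Its pooled counts were 3, 1, 7, 1 and 4 in the order complete, starved, shLuc, shSlug1, shSlug2, and it overlaps the antisense genes Gm12970 and Gm26716.

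Pdcd6ip, the gene of ALIX, was called in no comparison. Pdcd6ip (ENSMUSG00000032504.15, chromosome 9, 113651744 to 113708259, minus strand) had means of 82.0 ± 19.1 CPM in complete medium and 99.0 ± 24.3 after starvation. Its means were 83.5 ± 14.5 (shLuc), 96.2 ± 12.1 (shSlug1) and 108 ± 37.0 (shSlug2), with SD and n = 5, and groups next to each other in level overlapped throughout. Its lowest and highest libraries, at 56.2 and 157 CPM, were both of shSlug2. The limma changes were 0.26 in starvation (SE 0.21, adjusted p = 0.4208), 0.21 with shSlug1 (SE 0.21, adjusted p = 0.7523) and 0.31 with shSlug2 (SE 0.21, adjusted p = 0.7236).

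Counted together, the members read as follows. In starvation 3 of the 5 members open to a test were called, Sdcbp and Sdc4 higher and Sdc1 lower, where 22.4% of all tested genes were called (10.8% higher and 11.7% lower). With shSlug1 against shLuc 1 of 5 was called (Sdcbp2, lower) beside 1.46% of all tested genes (0.369% higher and 1.09% lower). With shSlug2 against shLuc none of 5 was called by limma, edgeR or DESeq2, beside 0.649% of all tested genes (0.473% higher and 0.176% lower), and 1 had an unadjusted p under 0.05 in limma and in edgeR. These 3 comparisons helped to choose the set, and nothing is read from the counts. Between the hairpins 1 of 5 was called (Sdcbp2, higher with shSlug2), beside 0.513% of all tested genes (0.489% higher and 0.0241% lower). Between shLuc and starved parental cells none of the 4 members open to a test was called by limma, edgeR or DESeq2, and none had an unadjusted p under 0.05 in limma or edgeR, where 23.6% of all tested genes were called (13.5% higher and 10.1% lower). Groups did not overlap for 15.7% of tested genes in starvation, 3.13% with shSlug1, 2.07% with shSlug2, 2.08% between the hairpins and 14.6% between shLuc and starved.

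**Figure D4:**
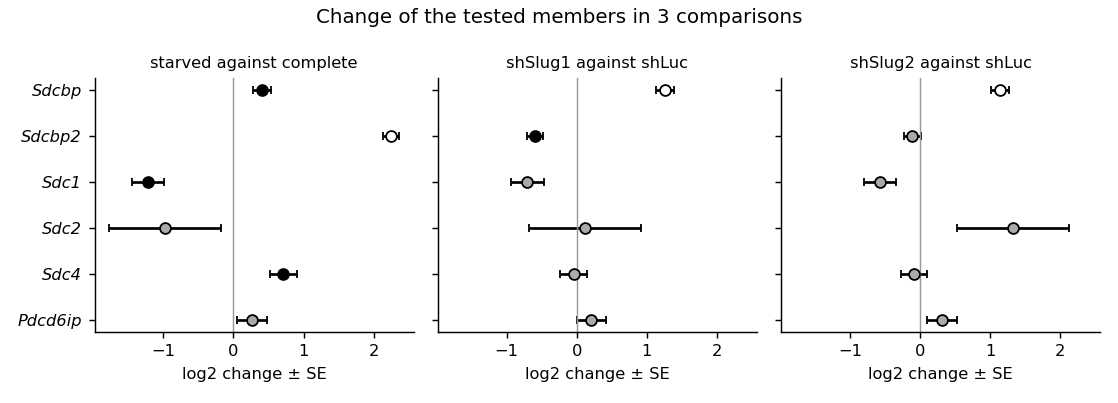
Log2 change (limma on log2(CPM + 1), whiskers 1 SE) of the 6 members that passed the filter, in starvation and with each Slug hairpin against shLuc. Black points passed the test, grey points did not, and white points are values that chose the gene and have no test; with shSlug1 Sdcbp stands at 1.26 and Sdcbp2 at -0.60, and in starvation Sdc1 stands at -1.21 and Sdcbp2 at 2.25.

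Over 7 lists of genes around the syntenins, 44 of 111 tested genes (39.6%) were called in starvation, where 22.4% of all tested genes were. The share called was 45.5% for syntenin partners, 54.5% for vesicle and tetraspanin genes and 28.6% for ESCRT and ALIX partners. It was 33.3% for heparan sulfate genes, 22.2% for other core proteins, 66.7% for shedding genes with their inhibitors and 42.9% for syndecan partners. The lists were chosen with earlier results of these data known, and the share over all genes is not matched for level. No enrichment is read from these shares.

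The partners that bind the syntenins were split in starvation, with 3 of 11 higher and 2 lower by limma and a median log2 change of -0.31, where the median of all tested genes was -0.06. Sox4, a transcription factor that binds syntenin-1, rose from 254 ± 47.4 CPM to 1047 ± 50.3 (log2 change 2.06, SE 0.11, limma adjusted p = 7.259e-24). Efnb2, the ephrin-B2 ligand with a PDZ-binding tail, rose from 82.4 to 216 CPM, and the kinase gene Src from 40.2 to 81.6. Cd63, the late endosomal tetraspanin that syntenin-1 holds, fell from 393 ± 48.4 to 295 ± 60.3 CPM, with overlap (log2 change -0.43, SE 0.14, limma adjusted p = 0.01803). Il5ra, the interleukin-5 receptor chain with a syntenin-binding tail in human cells, fell from 53.9 to 12.1 CPM.

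Vesicle trafficking and tetraspanin genes had 4 of 22 higher and 8 lower in starvation by limma, with a median log2 change of -0.41. The exosome tetraspanin gene Cd9 fell from 506 ± 56.4 to 213 ± 18.9 CPM (log2 change -1.24, SE 0.14, limma adjusted p = 6.165e-11), and Cd81 fell from 238 to 124 CPM. Tspan8 fell from 378 to 50.8 CPM, and Smpd3, the neutral sphingomyelinase of ceramide-driven budding, from 93.3 to 15.4. Arf6, the small GTPase that acts with syntenin-1 in endosomal budding, rose from 238 ± 46.1 to 320 ± 31.1 CPM (log2 change 0.44, SE 0.13, limma adjusted p = 0.006348).

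Among ESCRT genes and partners of ALIX, 5 of 28 rose and 3 fell in starvation by limma, with a median of 0.13. Chmp4b, the ESCRT-III subunit that ALIX recruits, rose from 131 to 253 CPM, and Tsg101, the ESCRT-I subunit, rose from 75.4 ± 30.3 to 138 ± 29.3 (log2 change 0.93, SE 0.19, limma adjusted p = 1.242e-04). The ESCRT-III genes Chmp2a and Chmp6 fell, from 130 to 56.7 and from 69.9 to 22.1 CPM.

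The machinery of heparan sulfate had 2 of 21 genes higher and 5 lower in starvation, with a median of -0.28 that was -0.07 under quantile scaling, -0.04 in edgeR and -0.11 without starved replicate 3 and shSlug1 replicates 4 and 5. Ugdh, which makes the UDP-glucuronate that builds the chain, fell from 901 to 456 CPM, and the 3-O-sulfotransferase gene Hs3st1 from 58.9 to 8.49, while the chain polymerase gene Ext1 rose from 95.1 to 190. Of other heparan sulfate core proteins 2 of 9 rose and none fell by limma, a share close to that over all tested genes, with a median of -0.15 that became 0.06 under quantile scaling. They were Cd44, whose splice forms can carry such chains (218 to 399 CPM), and Gpc1 (10.3 to 27.3 CPM), and edgeR called 2 higher and 1 lower.

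Enzymes that shed syndecan ectodomains, together with their inhibitors, had 2 of 6 higher and 2 lower, with a median of -0.45. The membrane protease gene Mmp14, the only protease among these calls, rose from 90.5 to 137 CPM. The inhibitor genes Timp1 and Timp2 parted, Timp1 rising from 33.2 to 74.4 CPM and Timp2 falling from 319 to 216. The remaining lower call was also an inhibitor gene. Cytoplasmic and coreceptor partners of syndecans had 4 of 14 higher and 2 lower, with a median of -0.10 that became 0.03 under quantile scaling and 0.07 in edgeR. The integrin genes Itgb1 and Itgav rose from 319 to 538 and from 64.0 to 153 CPM, and the linker gene Ezr fell from 737 to 326.

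**Figure D5:**
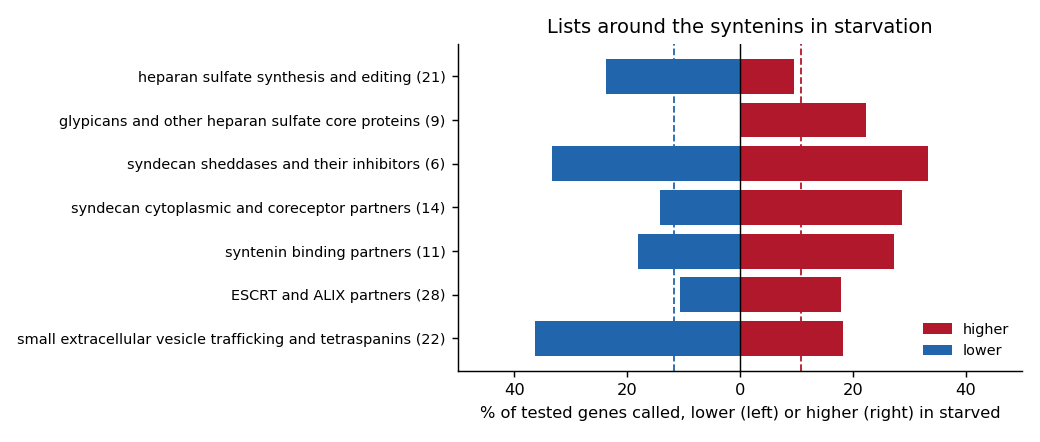
Share of each list's tested genes (number in brackets) called lower (left, blue) or higher (right, red) in starved against complete by limma. Dashed lines mark the shares over all 12473 tested genes, 11.7% lower and 10.8% higher; the vesicle list has 8 of 22 lower and 4 higher, the ESCRT list 3 of 28 lower and 5 higher.

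With a Slug hairpin, the share of pathway genes called was small, as it was over all genes. With shSlug1 against shLuc 1 of the 111 list genes was called (0.901%, against 1.46% of all tested genes), with shSlug2 2 (1.8%, against 0.649%) and between the hairpins 1 (0.901%, against 0.513%). With shSlug1 the gene was Cd44, which fell from 249 ± 76.3 to 145 ± 36.0 CPM with no overlap (log2 change -0.77, SE 0.16, limma adjusted p = 0.00296), and this call was lost without starved replicate 3 and shSlug1 replicates 4 and 5. Cd44 was not called with shSlug2, but was called lower there under quantile scaling, with totals without the mitochondrial genes, without those 3 libraries and in edgeR. Itgav was called lower with shSlug1 in edgeR alone. With shSlug2 the calls were Sox4, from 615 ± 63.5 to 828 ± 52.0 CPM (log2 change 0.43, SE 0.11, limma adjusted p = 0.04093), and Arf6, from 661 ± 61.8 to 945 ± 93.9 (log2 change 0.51, SE 0.13, limma adjusted p = 0.02628). Neither overlapped its shLuc group. The Sox4 call was lost under TMM and quantile scaling, with totals without the mitochondrial genes and with the replicate number as a block, and the Arf6 call under quantile scaling. Between the hairpins the single call was Sox4, higher with shSlug2 (limma adjusted p = 0.01201), which was lost under TMM scaling and without the same 3 libraries. Of the 7 epithelial markers, only 1 was called with each Slug hairpin, and it was not the same gene. Their median log2 change was -0.17 with shSlug1 and -0.11 with shSlug2, so no shift of the list is read from these calls. Krt8 fell from 282 to 195 CPM with shSlug1 (limma adjusted p = 0.01647), a call lost without the same 3 libraries. Krt7 fell from 193 to 109.7 CPM with shSlug2 (limma adjusted p = 0.008476).

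The closest partners of syntenin-1 and ALIX did not pass the test otherwise. Cd63 averaged 380, 434 and 348 CPM in shLuc, shSlug1 and shSlug2 libraries, with limma adjusted p of 0.6257 and 0.8855 against shLuc. Cd9 averaged 278, 250 and 270 CPM in the same order, Tsg101 207, 210 and 243, and Src 36.0, 25.9 and 40.0. Cd81 averaged 143, 96.3 and 131 CPM, and its shSlug1 change of -0.58 (SE 0.16) had an adjusted p of 0.05097 in limma.

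Between shLuc and starved parental cells 33 of the 111 list genes (29.7%) were called, where 23.6% of all tested genes were. By limma, 7 of 28 ESCRT and ALIX partners were higher with shLuc and 1 lower, 6 of 22 vesicle and tetraspanin genes were higher and 1 lower, and 3 of 14 syndecan partners were higher and 4 lower. Of syntenin partners 1 of 11 was higher and 3 lower, and of heparan sulfate genes 5 of 21 were lower. Of other core proteins 1 of 9 was higher and 1 lower, and none of the 6 shedding and inhibitor genes was called. The heparan sulfate genes (23.8%) and the other core proteins (22.2%) were thus close to the share over all genes. Arf6 was 2.07-fold higher with shLuc, Anxa2, an annexin of membrane traffic, 1.98-fold higher and Chmp1a, of ESCRT-III, 2.49-fold higher. Ext1 was 2.20-fold lower, Itgb1 1.79-fold lower and Src 2.27-fold lower. Of the 7 epithelial markers, 5 were higher with shLuc and none lower by limma. With totals without the mitochondrial genes 1 was also called lower, Cdh1. The part of this shift in the syntenin levels of the hairpin groups was not tested.

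Across all 25 libraries, genes whose pattern was among the most like that of Sdcbp, by Pearson r on log2(CPM + 1) over 7902 genes ranked, were Cdk4, a cyclin D kinase (r = 0.79), Ranbp1, a regulator of the Ran GTPase (0.77), Hnrnpa1, a splicing factor (0.77), and Ggnbp2 (0.77). Cdk4 averaged 330 CPM in complete medium and 430 after starvation, and 392, 505 and 549 in shLuc, shSlug1 and shSlug2 libraries. The libraries share their groups and their scaling, so these are descriptions over 25 points in 5 clusters.

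For Sdcbp2 the most similar patterns were those of Bdnf, a neurotrophin gene (r = 0.98), the stress gene Nupr1 (0.98), the zinc-finger gene Zfp13 (0.98), Gadd45g, a stress-response gene (0.97), and Plin2, which coats lipid droplets (0.97). Bdnf averaged 41.6 CPM in complete medium and 168 after starvation, and 271, 217 and 255 in shLuc, shSlug1 and shSlug2 libraries, the same order of groups as Sdcbp2. Nupr1 averaged 48.0, 608, 1765, 1530 and 1604 CPM in the order complete, starved, shLuc, shSlug1, shSlug2, and Plin2 94.1, 379, 655, 626 and 674.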

How the data were processed

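The authors deposited 1 table of CPM values for 30926 genes of 25 libraries, whose columns each sum to the same total. Per the labels' protocols, RNA came from the PureLink RNA Mini Kit and the QIAseq UPX 3' Transcriptome kit was used for sequencing libraries. Reads mark transcript ends, and levels of different genes are not compared here. The build was mm10, per the submitters' processing notes. Not given in the sources used here are the aligner, strand use and how molecular identifiers were treated. Within a tolerance of 0.001, 100% of values were whole multiples of the smallest step of their column, so counts were recovered. Whole multiples cannot tell whether these count reads or molecules. Totals of 158729 to 549893 counts leave low genes with wide errors, and intervals on them would cover counting error only.

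All comparisons came from limma-trend in R 4.3.3 (limma 3.58.1), fitted to log2(CPM + 1) of all 25 libraries at once. The 12473 genes that reached 5 CPM in 5 or more libraries entered two-sided tests with Benjamini-Hochberg adjustment over all of them, and calls were made at an adjusted p under 0.05. Fold changes are ratios of group means in CPM, and log2 changes understate those of low genes. The alternatives tried were edgeR 4.0.16 and DESeq2 1.42.0 on the recovered counts, each library left out, a replicate block, a fit restricted to the groups compared, quantile or TMM scaling, a filter at 20 CPM or none, and a pseudocount of 5 or 0.5. Added after seeing the data were totals without the mitochondrially encoded genes and leaving out starved replicate 3, the shallowest library, with shSlug1 replicates 4 and 5, which had a high mitochondrial share. The fit was also run on simulated data with large changes in a single comparison, which cannot show how it does for the smaller changes described here.

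The members, the 7 pathway lists and the marker lists were chosen with earlier results of these data known. The genes named from each list were the 3 called genes with the smallest p per comparison, or fewer, and Cd63, Cd9, Cd81, Tsg101, Arf6 and Src. For Sdcbp and Sdcbp2 the 5 most alike genes by Pearson r with a mean of at least 10 CPM were named, leaving out predicted symbols. A gene that this rule takes is not reported here. Krt7, Krt8 and Itgav with shSlug1 were named after their values were seen. Positions are from GENCODE M21 on GRCm38 and promoters from RefSeq on GRCm38.p6.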

Additional observations from a re-analysis of the deposited data

Results flagged for a closer look

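Some values stood far from the rest of their group. Sdcbp2 in starved replicate 2 was 740 CPM, while the other 4 starved libraries lay between 515 and 561. Sdc2 in shSlug2 replicate 1 was 14.4 CPM, which is 6 counts, while the other 4 had 1 count each. Sdc3 was seen in starved replicate 4 alone of its group, at 1.82 CPM, and in shSlug1 replicate 2 alone of its group, at 2.37 CPM, each of them 1 count. These are 4 of 35 groups of 5 libraries looked at. For continuous, normally spread values the rule would pick out about 1 group in 20. That rate does not hold for the Sdc2 and Sdc3 groups, which had so few counts, so no excess is read from the number of flags.

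The hairpins against Slug differed at Sdcbp2, by 0.49 on the log2 scale (limma adjusted p = 0.02085), with all 5 shSlug2 libraries above all 5 shSlug1 libraries. That call is not firm, since it was lost in 8 of the alternatives.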

How the results depend on the processing

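Over all alternatives, 614 member values kept their direction and side of the threshold, 31 changed sign, 9 lost the call and 1 moved. The 9 were Sdcbp in starvation without starved replicate 5 (log2 change 0.36) and Sdcbp2 between the Slug hairpins in the other 8. The 1 was Sdcbp2 in shLuc against starved, 0.76 under quantile scaling in place of 1.01. For Sdcbp2 between the hairpins the adjusted p in limma was 0.06953 under TMM scaling, 0.05266 under quantile scaling, 0.07786 with totals without mitochondrial genes and 0.2062 without starved replicate 3 and shSlug1 replicates 4 and 5, so that the count of members called was 0 in each of these fits in place of 1.

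The 31 sign changes all concerned log2 changes that were called neither before nor after. With shSlug1 against shLuc, Sdc2 (0.12) became -0.018 at a pseudocount of 5, -0.31 in edgeR and -0.32 in DESeq2, and Sdc4 (-0.04) became 0.012 in edgeR, 0.031 in DESeq2 and 0.030 without the 3 libraries. In shLuc against starved, Sdc4 (-0.08) became 0.014 under TMM scaling, 0.067 in edgeR and 0.10 without the 3 libraries, and between the hairpins Sdc1 (0.13) became -0.030 without them. Leaving out 1 library at a time, Sdc2 ran from -0.20 to 0.56 with shSlug1 and from -0.88 to 0.016 in shLuc against starved. Sdc4 ran from -0.14 to 0.11 with shSlug1, -0.24 to 0.088 with shSlug2, -0.20 to 0.13 between the hairpins and -0.21 to 0.10 in shLuc against starved. Sdc1 ran from -0.094 to 0.24 between the hairpins and from -0.091 to 0.33 in shLuc against starved, and Pdcd6ip from -0.048 to 0.32 between the hairpins.

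With 1 library left out, the members called ran from 2 to 3 in starvation, stayed at 1 with shSlug1 and at 0 with shSlug2 and in shLuc against starved, and ran from 0 to 1 between the hairpins. Over all genes the calls ran from 2482 to 2720 in starvation, 99 to 197 with shSlug1 (182 with all libraries, 99 without shLuc replicate 5), 57 to 80 with shSlug2 (81), 37 to 79 between the hairpins (64, and 37 without shSlug2 replicate 4) and 2537 to 2912 in shLuc against starved. With shSlug1, a fit of only the groups compared called 121 genes and edgeR 298. With shSlug2, edgeR called 138 and DESeq2 140. Between the hairpins, TMM scaling called 38 and leaving out the 3 libraries 34. The cause of these differences was not tested.

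The share of higher genes among the calls was 25.3% with shSlug1, but 35.8% under quantile scaling, 35.4% with totals without mitochondrial genes, 43.3% without the 3 libraries, 41.3% in a fit of only the groups compared, 50.7% in edgeR and 57.1% in DESeq2. With shSlug2 it was 72.8%, but 54.3% under quantile scaling and 55.0% with totals without mitochondrial genes. Between the hairpins it was 95.3%, but 78.4% with totals without mitochondrial genes, 71.1% in edgeR and 63.5% in DESeq2. Libraries with the same replicate number did not deviate together (median r of -0.002 over 50 pairs, against 0 over 200 other pairs). Counting error in low genes also brings such correlations near 0, so this check cannot exclude a pairing by number. With the replicate block the members called were 3, 1, 0, 1 and 0 in the 5 comparisons, as without it, and the genes called 2774, 182, 76, 57 and 2930. Depth limits Sdc2 and Sdc3, with 31 and 16 counts in all.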
